A study of Mus musculus with 44 samples.

Results

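All axons of the auditory nerve end in the cochlear nucleus of the brainstem, where the central pathway of hearing begins. Removing a cochlea destroys that input, so the nucleus of the same side loses its drive and its nerve terminals degenerate. Glial cells are known to answer such a loss: astrocytes enlarge and make more intermediate filament, and microglia, the resident phagocytes, take on an activated state and clear debris, while neurons that lose activity lower genes that depend on firing. The 6 arrays described here measured that response late and in the older nucleus. They were chosen by the age and time in their titles, and they are 6 of the 44 arrays of the series.

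Mice had 1 cochlea removed at postnatal day 21 (P21), and both cochlear nuclei were taken 48 h later. There were 3 arrays of the deafferented nucleus (the side of the removal) and 3 of the control nucleus (the opposite side). The same 2 sides at P21 and 24 h and at postnatal day 7 (P7) and 48 h, with 3 arrays a side, served for comparison. Each array held RNA from its own pool of tissue, and the strain and the number of animals in a pool are not given in the sources used here. All groups came from operated animals, so every difference is against the opposite nucleus of operated mice, and a change in that nucleus cannot be told apart from one in the deafferented nucleus.

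Expression is given as log2 values per probe set, a set of short probes for 1 transcript. Of 22626 probe sets, 15323 rose above log2 5, the level taken as the limit of background signal, in at least 2 of the 44 arrays and were tested. The 6 arrays had medians between 5.96 and 6.05. Replicate 3 stood apart on both sides: it correlated with replicates 1 and 2 at r of 0.965 to 0.97, against 0.986 to 0.992 among the arrays of those replicates, and 185 probe sets were higher and 189 lower by over 1 on the log2 scale in both of its arrays than in the mean of the other arrays of their side. Arrays of 1 number deviated together from their group means in each of the 3 pairs (r of 0.632, 0.428 and 0.714 over the probe sets tested). The deafferented and control arrays were therefore compared within pairs, with limma on all 44 arrays. Its SEs and p-values rest on the spread of the differences within pairs, estimated over all ages and times, and not on the spread that the 2 arrays of a pair share. Of the markers checked, those of neurons, astrocytes, microglia and oligodendrocytes were above log2 5 on all 6 arrays, except Slc6a5, the glycine transporter of inhibitory neurons, which read 2.81 to 3.41 on all 6 arrays. Markers of choroid plexus, meninges and cerebellum were also present.

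At an adjusted p under 0.05, 104 of 15323 probe sets (0.679%) differed between the nuclei, 69 higher (0.45%) and 35 lower (0.228%) on the deafferented side. They stand for 53 genes that rose and 29 that fell. The genes that rose were led by microglial genes, by genes of reactive astrocytes and by genes that neurons turn on after axon injury. Those that fell included Tnnt1, Inhbb, Rasd2, Cd24a and Rgs4. All 104 had the same sign in the 3 pairs, and in 97 the 2 groups did not overlap, against 7.76% of all probe sets tested (3.92% with all deafferented arrays above and 3.84% with all below the controls). Changes were small at the lower end, with the smallest called change at 0.37 on the log2 scale, and 42 probe sets changed by at least 1. Without the pair in the model, 54 of the same 104 passed and no others. When pair 1 was left out 34 of the 104 still passed, without pair 2 58, and without pair 3 37. The 22 probe sets that passed in each of these 3 fits include 13 named genes that rose (C1qa, C1qb, Cd68, Ctsz, Ecel1, Fcgr2b, Gadd45a, Gfap, Ly86, Mapk13, Mpeg1, Sprr1a and Vim) and 5 that fell (Cd24a, Nrip3, Rgs4, Tfrc and Tnnt1). Of the 104 called probe sets, 4 would not have passed the filter on low values without the arrays of P21 and 48 h. Sprr1a and Ecel1 are among them, so they were tested because they were high in the deafferented arrays.

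**Figure D1:**
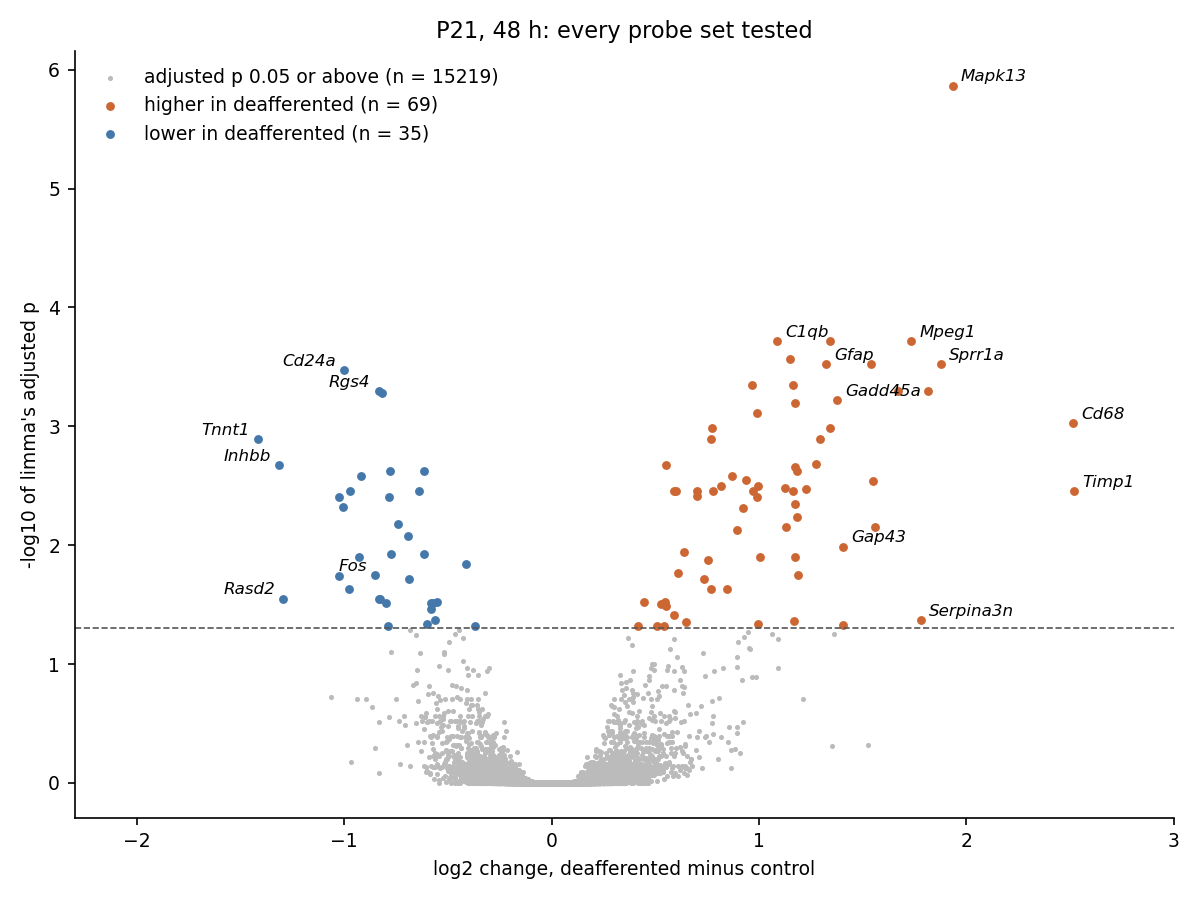
Change between the nuclei at P21, 48 h, for every probe set tested. The horizontal axis is the log2 change of the deafferented against the control nucleus, the vertical axis is -log10 of limma's adjusted p, the dashed line marks 0.05, and labels name genes described in the text. Orange points (69) are higher and blue points (35) lower in the deafferented nucleus; Mapk13 has the smallest adjusted p, and Timp1 and Cd68 have the largest increases.

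Microglial genes formed the largest group that rose. Of 23 measured genes of activated and phagocytic microglia, 12 rose and none fell (0.54% of all 8886 genes rose), and their median change was 1.09, against -0.01 over all genes. Of 11 genes listed for homeostatic (resting) microglia, 5 rose and none fell, with a median of 0.75. The 5 include Ptprc, which passed the filter on low values through 2 deafferented arrays of this comparison alone. It was measured because it was high there. Of 7 complement genes, the 3 chains of C1q, the protein that opens the classical complement pathway, rose and the other 4 gave values between 0.04 and 0.53. RNA of whole tissue was measured, so more cells of a type and more RNA per cell cannot be told apart. The summed level of the 4 measured markers of microglia (Aif1, Csf1r, Cx3cr1 and P2ry12) lay between 10.04 and 10.14 (log2) in the control arrays and between 10.65 and 11.01 in the deafferented arrays, and 3 of the 4 rose. Pair 1 bore on these counts: without it 2 of the 23, none of the 11 and 1 of the 7 passed, while without pair 2 the counts were 11, 3 and 3, and without pair 3 they were 6, 2 and 2.

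Among receptors and surface proteins of microglia, Ly86, which pairs with a Toll-like receptor relative at the cell surface, read 7.79, 7.77 and 7.80 (log2) in control arrays 1 to 3 and 9.82, 8.97 and 9.20 in the deafferented arrays. The control arrays were nearly equal, the first deafferented array was highest, and the groups did not overlap. Ly86 rose 2.91-fold (log2 change 1.54 ± 0.20 SE, limma adjusted p = 0.000297, between 0.000108 and 0.0193 over 17 alternative analyses). Fcgr2b, the inhibitory receptor for IgG, read 4.80, 4.78 and 4.86 in the controls and 6.87, 6.01 and 6.58 in the deafferented arrays, without overlap. It rose by 1.67 ± 0.23 (adjusted p = 0.000505, at most 0.0252 over the alternatives). Its 4 probe sets disagreed, however: the brightest, at a mean of 7.89 in the controls, changed by 0.01 (adjusted p = 1.00). Clec7a, a receptor for fungal glucans that activated microglia carry, went from 4.17, 4.44 and 4.44 to 6.79, 5.40 and 5.51, which is a rise of 1.55 ± 0.26 from near background (adjusted p = 0.00287). Leaving out pair 1, which holds the high array, gave Clec7a a change of 1.01 and an adjusted p of 0.149, the highest of its alternatives.

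Tyrobp, the adaptor that couples several of these receptors to kinases, rose by 1.18 ± 0.22 (adjusted p = 0.0058), from 7.87, 7.93 and 7.49 to 9.35, 8.40 and 9.08. The groups did not overlap, but the second pair differed least, and without pair 3 the adjusted p was 0.206. Trem2, a receptor that signals through Tyrobp, gave opposite signs on its 2 probe sets: the brighter read -0.10 (adjusted p = 1.00) and the dimmer, below log2 5 in 5 of the 6 arrays, 1.00 (adjusted p = 0.0462, and 0.447 without pair 3). Csf1r, the receptor that microglia need to survive, rose on 2 of its 3 probe sets, by 0.77 ± 0.12 and 0.75 ± 0.15 (adjusted p of 0.00128 and 0.0134), with controls at 8.82, 8.88 and 8.67 and deafferented arrays at 9.75, 9.47 and 9.46 on the first. That probe set missed the threshold without pair 1 (0.0558), and the other reached 0.315 without pair 3. Fcrls rose by 1.18, Ptprc (the leukocyte antigen CD45) by 1.19, Aif1 (the calcium-binding protein Iba1) by 0.89 and Cx3cr1 (the fractalkine receptor) by 0.51, with adjusted p of 0.00235, 0.0177, 0.00748 and 0.0475. Without 1 of the pairs each of these 4 missed the threshold: Fcrls and Aif1 at 0.121 and 0.307 without pair 1, Ptprc at 0.314 without pair 2 and Cx3cr1 at 0.497 without pair 3. Without the pair in the model Ptprc (0.14) and Cx3cr1 (0.575) did not pass, and the 2 groups of Ptprc overlapped. Ptprc passed the filter on low values through 2 of the deafferented arrays and no other of the 44, so it was tested because it was high there.

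Of genes that serve engulfment and lysosomal digestion, Cd68, a lysosomal glycoprotein of phagocytes, changed most. It read 5.46, 5.70 and 4.06 in the control arrays and 8.42, 7.04 and 7.31 in the deafferented arrays. All deafferented arrays lay above all controls, and the third pair was widest, with the lowest control. Cd68 rose 5.71-fold (2.51 ± 0.37, adjusted p = 0.000944). Over its 17 alternatives the adjusted p lay between 0.000709 and 0.0631, and it passed in 15. Mpeg1, a pore-forming protein of macrophages, went from 6.85, 7.20 and 5.98 to 8.79, 8.05 and 8.39 and rose 3.32-fold (1.73 ± 0.21, adjusted p = 0.000191, at most 0.035 over the alternatives). Among lysosomal proteases, Ctsz rose on all 3 of its probe sets, by 0.92 to 1.15, and on the most precise one from 7.65, 7.44 and 7.43 to 9.19, 8.40 and 8.38 (adjusted p = 0.000269). Cathepsins S and D (Ctss and Ctsd) rose by 0.85 and 0.61 (adjusted p of 0.0234 and 0.017). Neither passed without the pair in the model (0.0631 and 0.908), and without 1 pair they reached 0.233 (pair 2) and 0.367 (pair 3).

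Progranulin (Grn), a secreted and lysosomal protein, rose by 0.77 ± 0.12 on the brightest of its probe sets, from 10.51, 10.53 and 10.52 to 11.54, 11.12 and 11.22 (adjusted p = 0.00103). The 3 control arrays were almost the same and all deafferented arrays lay above them, and the adjusted p was 0.0558 without pair 1. Gpnmb, a glycoprotein of phagocytes, rose by 1.23 (adjusted p = 0.00337), Fcgr3, an activating receptor for IgG, by 1.17 (0.00218), and Laptm5, a lysosomal membrane protein of blood-lineage cells, also by 1.17 (0.00351). Each of these 3 missed the threshold when pair 1 was left out, at 0.158, 0.0756 and 0.121. Laptm5 passed on 1 of its 3 probe sets, and the dimmer ones read 0.65 and 0.28. In the lysosome list, 5 of 41 genes rose (Cd68, Grn, Ctsz, Ctsd and Ctss), and the list's median was 0.07. The count was 1 without pair 1 (Cd68), 4 without pair 2, 2 without pair 3 and 2 without the pair in the model. Several microglial genes did not pass: Lgals3, a galectin of activated microglia, read 1.21 ± 0.35 (adjusted p = 0.196), Fcer1g 1.09 (0.108), Tmem119 0.29 (0.966) and Apoe 0.10 (1.00).

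The C1q chains moved together. C1qa read 8.85, 8.64 and 8.27 in the controls and 10.18, 9.42 and 9.68 in the deafferented arrays, and rose 2.26-fold (1.17 ± 0.17, adjusted p = 0.000631, at most 0.0363 over the alternatives). C1qb rose on all 3 of its probe sets, by 0.97 to 1.34, and on the most precise one from 8.30, 8.26 and 8.03 to 9.67, 9.06 and 9.11 (adjusted p = 0.000191, at most 0.0181). C1qc went from 7.66, 7.64 and 6.57 to 9.17, 8.35 and 8.17, which is 1.27 ± 0.20 (adjusted p = 0.00206, and 0.0761 without pair 3). No control array of any chain reached the lowest deafferented array of that chain. The genes of the 3 chains lie side by side on chromosome 4. C3ar1, the receptor for the complement fragment C3a, gave 0.53 (adjusted p = 0.471), and Serping1, the inhibitor of the first complement component, 0.13 (1.00).

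**Figure D2:**
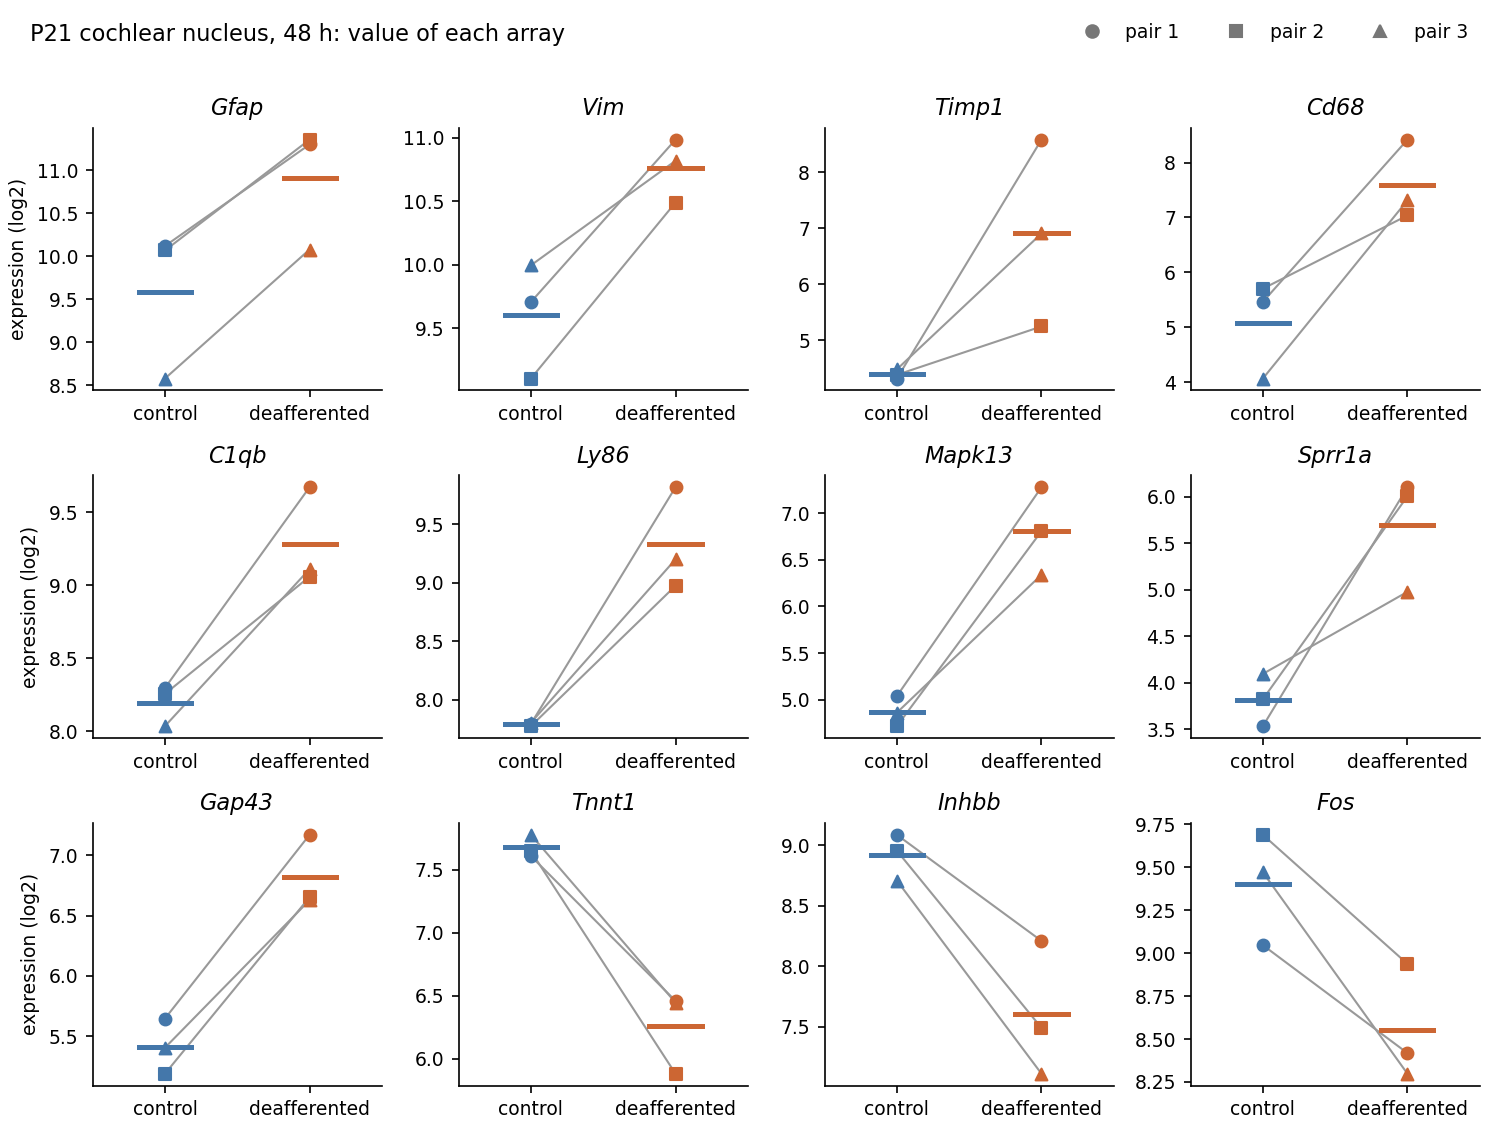
Value of each of the 6 arrays for 12 genes at P21, 48 h. The vertical axes give log2 expression and start at different levels, blue symbols are control and orange symbols deafferented arrays, grey lines join the arrays of 1 replicate number, and bars are group means. For Gfap the third pair lies below the other pairs on both sides, at 8.58 and 10.08, while every line rises; for Tnnt1, Inhbb and Fos every line falls.

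Genes of reactive astrocytes rose in part. Of 15 measured genes that reactive astrocytes share (the pan-reactive list), 6 rose and none fell, with a median of 0.36. They were Gfap, Vim, Timp1, Cd44, Serpina3n and Lcn2. Of 8 genes of the A2 type, a state described after ischaemia, S100a10 rose on both probe sets (0.70 ± 0.12 on the brighter, adjusted p = 0.00389), and of 6 genes of the A1 type, described after inflammation, none passed (median 0.03). Of 18 genes of homeostatic astrocytes none passed, with a median of 0.13, although Slc1a3, a glutamate transporter, read 0.49 (adjusted p = 0.0992) and Aqp4, the water channel of astrocyte endfeet, 0.45 (0.411). The summed level of 4 astrocyte markers lay between 13.19 and 13.30 in the controls and between 13.59 and 13.73 in the deafferented arrays, and none of the 4 passed. The count of pan-reactive genes fell to 2 without the pair in the model, to 2 without pair 1, to 5 without pair 2 and to 2 without pair 3. That probe set of S100a10 did not pass without the pair in the model (0.0921) or without any 1 of the pairs (at most 0.0761, without pair 3).

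Gfap, the intermediate filament that marks reactive astrocytes, read 10.12, 10.07 and 8.58 in control arrays 1 to 3 and 11.30, 11.35 and 10.08 in the deafferented arrays. The third pair was low on both sides, so the groups overlapped, and the differences within pairs were nearly equal. Gfap rose 2.5-fold within pairs (1.32 ± 0.17, adjusted p = 0.000297, at most 0.0132 when 1 pair was left out). Its second probe set rose by 1.34 (adjusted p = 0.00104, and 0.056 without pair 3). Without the pair in the model the adjusted p was 1.00, and over all 17 alternatives it lay between 9.44e-05 and 1.00. Vim, the intermediate filament vimentin, rose on all 3 of its probe sets, by 0.97 to 1.30, and on the brightest from 9.71, 9.10 and 9.99 to 10.99, 10.49 and 10.82 (1.16 ± 0.16, adjusted p = 0.000451, between 0.000321 and 0.2 over the alternatives, the highest without control array 2 and without the pair in the model). All 3 deafferented arrays lay above the highest control.

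Timp1, a secreted inhibitor of matrix metalloproteinases, rose about as much as Cd68, and its deafferented arrays were widely spread. Its control arrays lay at background, at 4.32, 4.39 and 4.48, and its deafferented arrays at 8.58, 5.25 and 6.91. All 3 were above the controls, and the first was highest and the second lowest by far. Timp1 rose by 2.52 ± 0.44 (5.72-fold from a background level, adjusted p = 0.00351). The adjusted p was 0.202 without pair 1, the highest of 17 alternatives, and the log2 change was 1.64 there, against 2.29 for Cd68. Serpina3n, a secreted protease inhibitor, showed the same order, with controls at 5.24, 5.58 and 4.75 and deafferented arrays at 7.88, 6.13 and 6.90 (1.78 ± 0.41, adjusted p = 0.0424), and it passed in 3 of 17 alternatives. Lcn2, an iron-binding acute-phase protein, went from 5.33, 5.32 and 5.75 to 8.16, 5.79 and 6.66 (1.40 ± 0.33, adjusted p = 0.0468) and passed in 4 of 17. Without pair 1 the change of Lcn2 was 0.69 (adjusted p = 0.767). For Serpina3n and Lcn2 the second deafferented array lay less than 1 above its control, and the adjusted p reached 1.00 when the first deafferented array was left out without the pair in the model. Cd44, the hyaluronan receptor, rose by 1.00 ± 0.20, from 6.43, 5.89 and 6.07 to 7.61, 6.90 and 6.90 (adjusted p = 0.0126). Cd44 did not pass without the pair in the model (0.126), nor without any 1 of the pairs (at most 0.221, without pair 1).

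Genes that neurons switch on after axon injury, several of which accompany regrowth, held some of the largest increases. Of 29 measured, 6 rose and none fell (Sprr1a, Ecel1, Gadd45a, Atf3, Gap43 and Jun), while the list's median was 0.10. Of all 8886 genes 0.54% rose. Without pair 1 the count was 3, and without pair 2 or pair 3 it was 4. Sprr1a, a small proline-rich protein of the skin's cornified envelope that injured neurons also make, read 3.53, 3.82 and 4.10 in the control arrays and 6.10, 6.00 and 4.98 in the deafferented arrays. The groups did not overlap, and the third pair differed least. Sprr1a rose by 1.88 ± 0.24 (adjusted p = 0.000297, and at most 0.043 in 16 alternatives). Ecel1, a peptidase induced in damaged neurons, went from 2.62, 2.75 and 2.78 to 5.18, 5.13 and 3.29 and rose by 1.82 ± 0.25 (adjusted p = 0.000505, at most 0.0932, with the 6 arrays fitted alone). Both genes were at background in the controls and passed the filter on low values through 2 of these deafferented arrays and no array outside the 6, so their rises start from a level that the arrays cannot resolve. They were tested because they were high there. Their place among the largest increases and the count of 6 are therefore partly set by the filter.

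Atf3, a transcription factor induced by injury, read 4.20, 4.53 and 4.51 in the controls and 7.25, 5.67 and 5.01 in the deafferented arrays, with the first pair far wider than the others. It rose by 1.56 ± 0.29 (adjusted p = 0.0070). Without pair 1 its change was 0.82 (adjusted p = 0.261). Gadd45a, which cells induce under stress to stop dividing, was even across pairs: its controls read 8.19, 7.82 and 8.06 and its deafferented arrays 9.62, 9.21 and 9.38. Gadd45a rose 2.6-fold (1.38 ± 0.20, adjusted p = 0.000604) and passed in 17 of 17 alternatives. Gap43, a growth cone protein, rose by 1.40 ± 0.27, from 5.64, 5.19 and 5.40 to 7.17, 6.65 and 6.63 (adjusted p = 0.0103). The pairs of Gap43 were alike, yet it did not pass without the pair in the model (0.0734), nor without any 1 of the pairs (at most 0.158, without pair 1), and the highest of its alternatives was 0.514. Jun, a subunit of the transcription factor AP-1, rose on both probe sets, by 0.73 ± 0.15 and 0.65 ± 0.15 (adjusted p of 0.0193 and 0.0444), and the first reached 0.263 without pair 3. Other injury genes did not pass: Gal (galanin) read 0.53 (adjusted p = 0.151), Marcks 0.52 (0.259), Sox11 -0.26 (0.995) and Npy 0.09 (1.00).

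The promoters of 3 genes that rose are printed because each holds letters of a factor whose pathway the lists cover: Gfap for STAT factors, which act downstream of interleukin 6 type cytokines, and Cd68 and Sprr1a for AP-1, which contains Jun and Fos. Each is 300 bases from RefSeq (build GRCm38.p6), mostly upstream of the annotated start and ending inside the transcript, 5′ to 3′ on the gene's strand, with the matching letters in capitals. Gfap is at chr11:102897151-102897450, Cd68 at chr11:69666121-69666420 and Sprr1a at chr3:92485832-92486131, all on the minus strand.
Gfap: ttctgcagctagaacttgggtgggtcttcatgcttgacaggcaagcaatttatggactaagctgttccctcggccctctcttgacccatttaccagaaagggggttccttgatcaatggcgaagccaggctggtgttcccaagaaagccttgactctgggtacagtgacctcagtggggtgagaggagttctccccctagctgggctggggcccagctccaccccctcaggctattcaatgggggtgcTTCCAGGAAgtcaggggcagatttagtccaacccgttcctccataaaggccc
Cd68: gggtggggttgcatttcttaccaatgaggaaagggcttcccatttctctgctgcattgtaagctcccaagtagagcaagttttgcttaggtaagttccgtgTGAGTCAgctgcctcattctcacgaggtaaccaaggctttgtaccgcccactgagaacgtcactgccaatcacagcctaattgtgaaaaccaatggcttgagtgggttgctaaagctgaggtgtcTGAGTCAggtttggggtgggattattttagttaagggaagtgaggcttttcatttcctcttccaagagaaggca
Sprr1a: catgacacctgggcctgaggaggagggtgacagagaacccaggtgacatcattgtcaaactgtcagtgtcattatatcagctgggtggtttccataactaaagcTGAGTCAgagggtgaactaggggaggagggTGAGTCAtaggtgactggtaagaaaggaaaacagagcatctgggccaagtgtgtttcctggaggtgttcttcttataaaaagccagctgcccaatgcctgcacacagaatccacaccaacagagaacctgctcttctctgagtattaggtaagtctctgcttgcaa

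In Gfap the STAT letters (TTCNNNGAA, which read alike on both strands) begin at base -2 from the annotated start. In Cd68 the AP-1 letters (TGACTCA, or TGAGTCA on the other strand) begin at -149 and -24, and in Sprr1a at -146 and -116. Of the 53 genes that rose, 47 have a promoter in the reference table, and 4 of these hold the AP-1 letters (8.51%: Adcy7, Cd68, Gpnmb and Sprr1a), against 1 of 24 genes that fell (4.17%: Cbarp) and 4.86% of 7201 measured genes. All promoters of the table hold them in 5.2%. The STAT letters occur in 2 of the 47 (4.26%: Adcy7 and Gfap), in 1 of the 24 (4.17%: Kcnab1), in 8.11% of the measured genes and in 8.3% of all promoters. TGACGTCA, the full site of the activity-driven factor CREB, occurs in none of the 47, in 1 of the 24 (Elovl5), in 3.54% of the measured genes and in 1.79% of all promoters. These are matches of letters in a window, not sites.

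Genes whose transcription follows neuronal activity went in both directions. Of 18 measured immediate early genes, Fos fell and Jun rose (0.293% of all genes fell), and the median was -0.07. Fos, the AP-1 subunit widely used as a marker of recent firing, read 9.05, 9.69 and 9.47 in the controls and 8.42, 8.94 and 8.30 in the deafferented arrays. The groups did not overlap, though the first control and the second deafferented array were close, and each pair fell. Fos fell by 0.85 (± 0.18 SE, adjusted p = 0.0177). It did not pass without the pair in the model (0.49), nor without any 1 of the pairs (at most 0.367, without pair 3). Nr4a1, an orphan nuclear receptor, read 6.53, 7.0 and 6.25 against 5.96, 6.07 and 5.91 (-0.62 ± 0.21, adjusted p = 0.351), and Dusp1, a phosphatase that ends MAP kinase signals, read 8.39, 8.84 and 8.79 against 8.05, 8.19 and 8.22 (-0.52 ± 0.16, adjusted p = 0.257). For both genes every control array lay above every deafferented array, and neither difference passed. Arc gave -0.55 (adjusted p = 0.187), Egr1 -0.08 and Junb -0.03.

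Among 21 neuropeptides and activity-regulated secreted factors, 3 fell and none rose, with a median of -0.04. The count was 1 without pair 1, 2 without pair 2 and 0 without pair 3. Inhbb, a subunit of activin B, went from 9.09, 8.96 and 8.71 to 8.21, 7.49 and 7.11. Every deafferented array lay below every control, and the third pair was widest. Inhbb fell by 1.31 (± 0.21, adjusted p = 0.00212, between 0.000202 and 0.381 over the alternatives, and 0.0748 without pair 3). A dimmer probe set of Inhbb, near background, read -0.42 and did not pass (adjusted p = 0.303). C1ql3, a secreted synaptic organiser, fell by 1.01 (± 0.18, adjusted p = 0.00479, and 0.164 without pair 3), from 9.04, 8.87 and 8.63 to 7.99, 8.20 and 7.33. The dimmer probe sets of C1ql3 read -0.75 and -0.94 and did not pass (adjusted p of 0.197 and 0.196). Cck, the peptide cholecystokinin, fell by 0.78 (± 0.15, adjusted p = 0.0119), from levels near background at 5.09, 5.46 and 4.97 to 4.37, 4.51 and 4.31, and did not pass without the pair in the model (0.0784) or without any 1 of the pairs (at most 0.209, without pair 2). Of the peptides that did not pass, Scg2 (secretogranin 2) read -0.39 (adjusted p = 0.196), Adcyap1 (the peptide PACAP) -0.27 (1.00) and Tac1 (substance P) -0.13 (1.00).

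The largest decrease was that of Tnnt1, a troponin of slow muscle. It read 7.61, 7.65 and 7.78 in the controls and 6.46, 5.88 and 6.44 in the deafferented arrays, with a gap of over 1 between the groups. Tnnt1 fell by 1.42 (± 0.22, adjusted p = 0.00128) and passed in 17 of 17 alternatives (at most 0.0398). Cd24a, a small glycoprotein of the cell surface, fell by 1.00 (± 0.13, adjusted p = 0.000337, at most 0.0281), from 12.36, 11.97 and 12.17 to 11.44, 11.01 and 11.05. Of its 3 probe sets 2 passed, and the dimmest read -0.48 (adjusted p = 0.737). The 3 pairs of Cd24a differed by nearly the same amount, and in Tnnt1 the second pair was widest. Rgs4, which shortens signals of G-protein-coupled receptors, fell by 0.83 (± 0.12, adjusted p = 0.000508, between 0.000447 and 0.0815), from 9.05, 8.94 and 8.58 to 8.16, 8.01 and 7.90. On its dimmer probe set Rgs4 read -0.65 and just missed the threshold (0.0564). Tfrc, the transferrin receptor through which cells take up iron, fell by 0.82 (± 0.12, adjusted p = 0.000527, at most 0.0214 when 1 pair was left out), from 10.76, 10.70 and 10.99 to 9.88, 10.05 and 10.07, on 1 of its 3 probe sets.

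Other decreases each missed the threshold without at least 1 of the pairs. Rasd2, a small GTPase, went from 8.10, 8.04 and 7.36 to 7.06, 6.73 and 5.82 and fell by 1.29 (± 0.28, adjusted p = 0.0281), but not without the pair in the model (0.767) nor without any 1 of the pairs (at most 0.336, without pair 3). The dimmer probe set of Rasd2 read -0.38 and did not pass (0.903). Arhgap24, which switches off the GTPase Rac, fell by 1.02 (adjusted p = 0.00391) and Mark1, a kinase that loosens microtubule-binding proteins, also by 1.02 (0.0183). In both genes the third deafferented array was lowest, at 5.55 and 4.61, and without pair 3 the adjusted p was 0.15 and 0.558. The change of Mark1 was -0.63 without pair 3, and its 4 brighter probe sets read between -0.34 and -0.16 and did not pass. Stk24, a kinase of the Ste20 family, fell by 0.97 (0.00351, and 0.0895 without pair 3), Cbarp, a regulator of calcium channels, by 0.93 (0.0126, and 0.191 without pair 3) and Cmya5, a muscle protein, by 0.92 (0.00262, and 0.0806 without pair 1). Kcnab1, an accessory subunit of potassium channels, was the one of 31 voltage-gated channel genes to pass: it fell by 0.74 (± 0.14, adjusted p = 0.00657, and 0.209 without pair 2), from 10.23, 10.35 and 10.23 to 9.61, 9.32 and 9.65. A dimmer probe set of Kcnab1 read -0.83 and did not pass (0.818).

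Lists of neuronal function otherwise held few or no changed genes at this size of experiment. None passed among 18 genes of glycine and GABA transmission (median 0.00), 20 of glutamate transmission (0.01), 29 of synaptic vesicles and release (-0.10) and 20 of cochlear nucleus and brainstem neurons (-0.08). Slc17a6, the vesicular glutamate transporter that many brainstem neurons use, was among the lowest of these at -0.46 (adjusted p = 0.151), with controls at 11.52, 11.24 and 11.21 and deafferented arrays at 11.14, 10.92 and 10.53. All 3 deafferented arrays lay below the controls. The summed level of 7 neuronal markers lay between 14.39 and 14.58 in the controls and between 14.28 and 14.45 in the deafferented arrays, so the groups overlapped. Calb2, the calcium-binding protein calretinin of auditory nerve and nucleus, read -0.03 ± 0.13 (adjusted p = 1.00). Markers of cerebellum, which adjoins the nucleus, differed between arrays: Pcp2, of Purkinje cells, read 8.49, 8.87 and 8.02 in the controls and 8.60, 10.91 and 9.92 in the deafferented arrays (1.35, adjusted p = 0.486). None of the 17 cerebellar genes passed (median 0.09), and their part in the decreases was not tested.

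Oligodendrocyte and myelin genes (17, median -0.05), genes of interferon response and antigen presentation (18, 0.04), of cell death and survival (27, 0.17), of cell cycle and proliferation (36, 0.11), of neurotrophic factors (28, -0.08), of oxidative and proteotoxic stress (43, 0.11) and of endothelium and pericytes (31, -0.07) had no member that passed. The same held for 22 chemokines, cytokines and their receptors (median 0.10): Ccl3 read -0.04 and Ccl12 0.87 (adjusted p = 0.755), and the latter had 1 high array, the first deafferented one at 4.91, with the other 5 between 2.47 and 3.05. Of 35 genes of lipid transport and cholesterol synthesis, Abca1, which exports cholesterol from cells, rose by 0.59 ± 0.10 (adjusted p = 0.00351). Abca1 read 8.58, 8.33 and 8.49 in the controls and 9.11, 8.97 and 9.10 in the deafferented arrays, and did not pass without the pair in the model (0.0595) or without any 1 of the pairs (at most 0.0748, without pair 3). Of 44 cytosolic ribosomal protein genes 41 read above 0 (median 0.15), and of 73 genes of the mitochondrial respiratory chain 56 read below 0 (median -0.10), and none of either list passed. Of all 8886 genes, 4235 read above 0 and 4651 below.

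**Figure D3:**
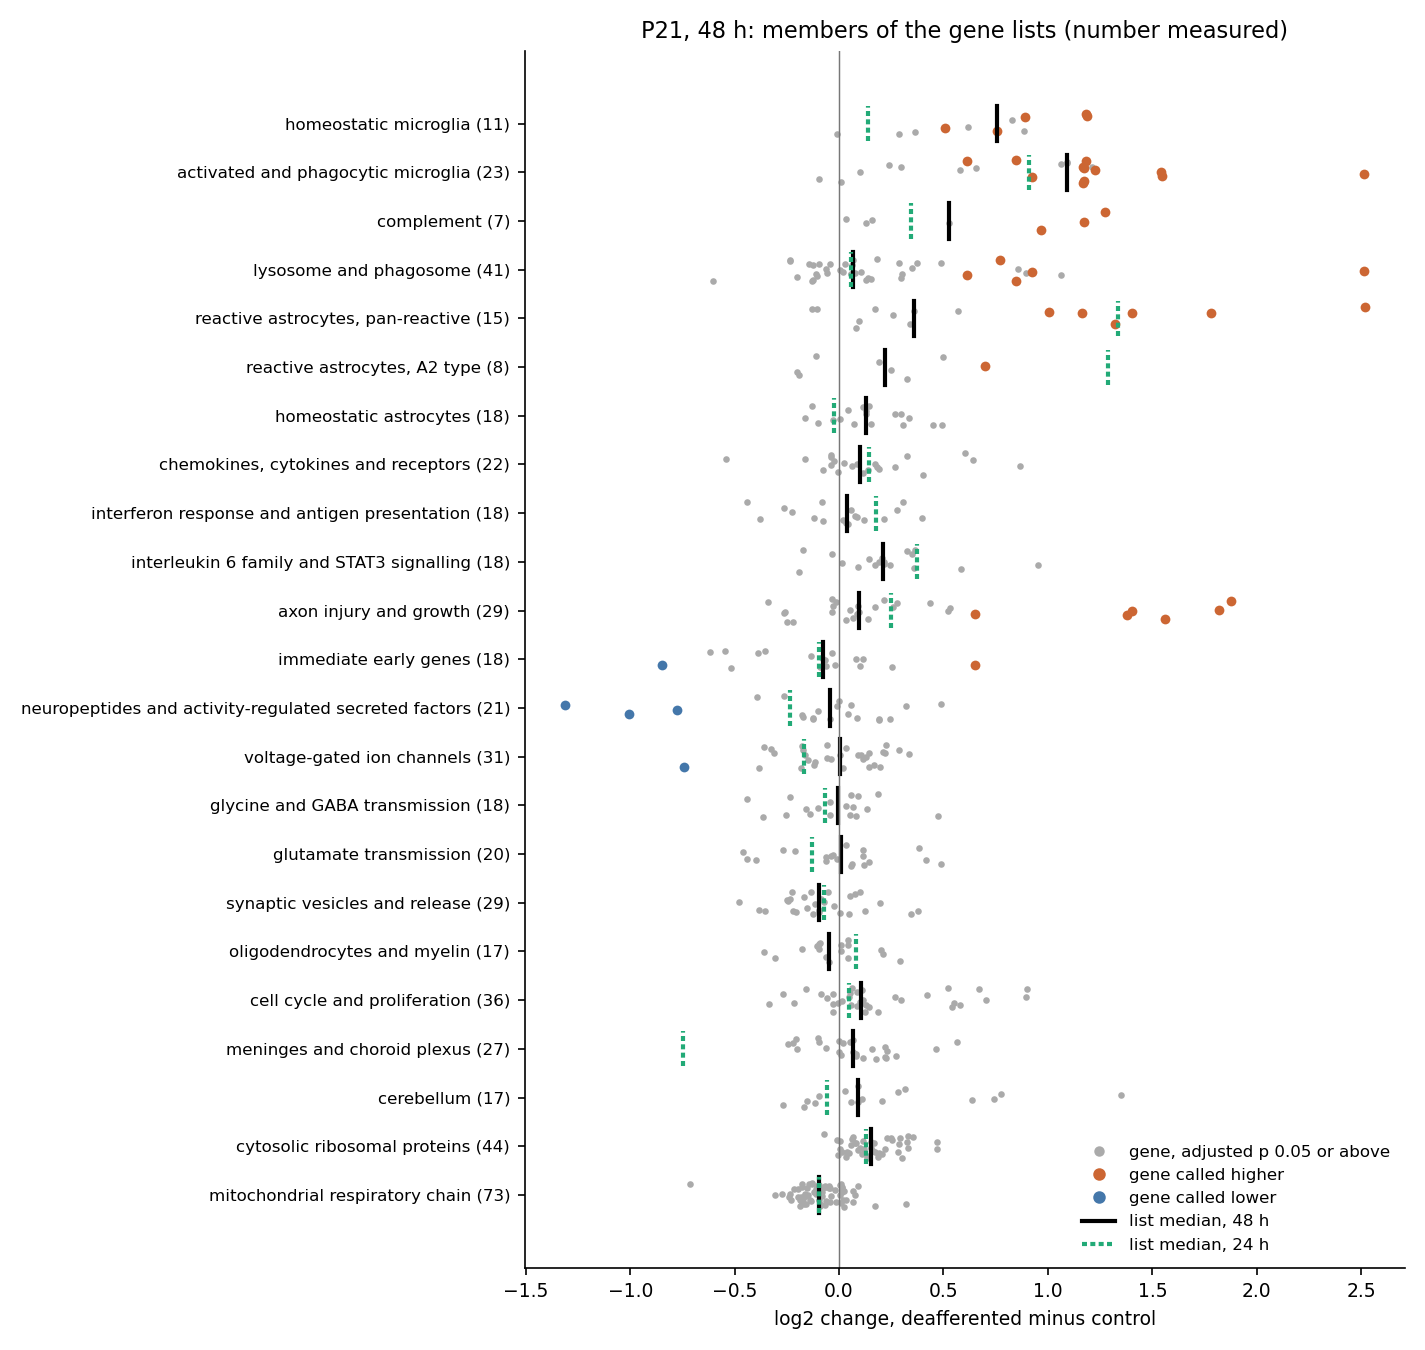
Change of each measured gene of 23 lists at P21, 48 h, each gene at its brightest probe set. The horizontal axis is the log2 change of the deafferented against the control nucleus, grey points did not pass, orange points rose and blue points fell, black bars are list medians at 48 h and dotted green bars those at 24 h. Microglial lists lie to the right at 48 h (medians 0.75 and 1.09), while the medians of the reactive astrocyte lists at 48 h (0.36 and 0.22) are below those at 24 h (1.34 and 1.29).

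Of the 82 genes called, 40 were in none of the lists. The one with the smallest adjusted p was Mapk13, the delta form of the stress kinase p38. It read 5.04, 4.72 and 4.86 in the control arrays and 7.28, 6.81 and 6.34 in the deafferented arrays, with a gap of over 1 between the groups. The controls lay at the background limit, so the fold is uncertain. Mapk13 rose 3.82-fold (1.93 ± 0.16, adjusted p = 1.36e-06, between 1.22e-07 and 0.0127 over 17 alternatives). Elk1, a transcription factor that MAP kinases phosphorylate, rose by 1.13 on 1 of 2 probe sets (adjusted p = 0.0033, and 0.0832 without pair 2), from 5.11, 5.06 and 5.29 to 5.95, 6.45 and 6.43. Mef2a, a transcription factor of muscle and neurons, rose by 0.55 on 1 of 4 (adjusted p = 0.00212, and 0.0564 without pair 2). Elovl5, an enzyme that lengthens polyunsaturated fatty acids, fell on both probe sets, by 0.64 and 0.62 (adjusted p of 0.00351 and 0.0119), and the first went from 12.01, 12.02 and 11.94 to 11.50, 11.31 and 11.24. The first did not pass without pair 3 (0.0848), nor the second without pair 2 (0.171). Elk1, Mef2a and Elovl5 here, and Tfrc and Trem2 above, were singled out after their values were seen.

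To ask how the response at 48 h differed from that of a day earlier, the 2 effects at P21 were compared directly. At 24 h, 249 probe sets (1.63%) differed between the nuclei, 176 higher (1.15%) and 73 lower (0.476%), and 57 were called at both times, all in the same direction (54.8% of those of 48 h and 22.9% of those of 24 h). The difference between the 2 effects passed for 28 probe sets (0.183%), 25 with a lower effect at 48 h and 3 with a higher one. Without the pair in the model 17 passed, and 10 of the 28 passed when each of the 6 pairs was left out in turn. Without replicate 2 of 24 h, 11 probe sets passed. At P21 and 24 h the choroid plexus gene Ttr (transthyretin) read -3.47 in the deafferented against the control nucleus (adjusted p = 0.0198) and the list of meninges and choroid plexus had a median of -0.75, against 0.00 and 0.07 at 48 h. The part of such neighbouring tissue in the differences was not tested.

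The lower effects were mostly increases of 24 h that were no longer seen. Genes of reactive astrocytes made up 8 of them: 4 of the 15 pan-reactive genes (Cd44, Hspb1, Fabp7 and S1pr3) and 4 of the 8 of the A2 type (Tgm1, Ptx3, Clcf1 and Tm4sf1), against 0.203% of all 8886 genes. Of these 8, Cd44 (brighter probe set), Hspb1, Fabp7 and Ptx3 lost the call when 1 of the pairs was left out. Tgm1, a transglutaminase, had changed by 3.26 at 24 h, from a mean of 3.04 to 6.30, and by 0.33 at 48 h, from 3.05 to 3.37 (difference -2.94 ± 0.25, adjusted p = 1.21e-06). S1pr3, a receptor for sphingosine 1-phosphate, changed by 2.23 at 24 h and by 0.09 at 48 h (difference -2.13, adjusted p = 0.000686). Ptx3, a secreted pentraxin, changed by 2.71 and 0.50 (difference -2.21, adjusted p = 0.00373, and 0.0593 without replicate 2 of 24 h). Each of these was at background at 48 h, with means between 3.05 and 4.50 in both nuclei, so the size of the difference is uncertain. Tgm1 and S1pr3 passed the filter on low values through 3 and 2 deafferented arrays of 24 h and no other of the 44, so they were tested because they were high there. Ptx3 was above log2 5 in 4 arrays, 3 of them the deafferented arrays of 24 h, and would not have been tested without those. The count of 8 includes these genes, so it is partly set by the filter.

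Cd44 differed on both of its probe sets. The dimmer changed by 3.33 at 24 h and by 0.26 at 48 h (difference -3.07 ± 0.31, adjusted p = 9.48e-06), and the brighter by 2.69 and 1.00 (-1.69 ± 0.28, adjusted p = 0.00644). The brighter did not pass without replicate 2 of 24 h (0.0872) or without the pair in the model (0.062). The dimmer was at background at 48 h, with means of 2.89 and 3.15, so the size of its difference is uncertain. It was above log2 5 in 4 of the 44 arrays, 3 of them the deafferented arrays of 24 h. Without those it would not have been tested. Hspb1, a small heat shock protein, changed by 1.78 and 0.26 (-1.52, adjusted p = 0.0097, and 0.136 without replicate 2 of 24 h), and Fabp7, a fatty acid-binding protein of radial glia and astrocytes, by 0.83 and 0.08 (-0.75, 0.0467, and 0.431 without pair 2). Gfap and Vim, by contrast, changed by 1.34 and 0.88 at 24 h and by 1.32 and 1.16 at 48 h, and their differences did not pass (adjusted p = 1.00). Timp1 and Serpina3n read 4.12 and 3.19 at 24 h and 2.52 and 1.78 at 48 h, and those differences did not pass either (0.896 and 0.971).

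Outside the astrocyte lists, Tubb6, a tubulin of injured and growing cells, changed by 2.20 at 24 h and by -0.03 at 48 h (difference -2.23 ± 0.31, adjusted p = 0.000791). Hmox1, the heme-degrading enzyme haem oxygenase, changed by 2.52 and 0.31 (-2.21 ± 0.37, adjusted p = 0.00644, and 0.0593 without replicate 2 of 24 h), and Hbegf, a growth factor of the epidermal family, by 1.98 and -0.23 on the first of its probe sets (-2.21, 0.000733). Hbegf was bright at both times, with a control mean of 7.31 at 24 h and 7.26 at 48 h. Socs3, the feedback inhibitor of STAT3 signalling, changed by 2.68 and 0.95 (-1.72, adjusted p = 0.0227), and passed neither without the pair in the model (0.847) nor without pair 2 (0.257). Lpl, lipoprotein lipase, a gene of lipid-handling microglia, changed by 2.18 and 0.66 (-1.52, 0.0142, and 0.122 without pair 3). Lalba, named in the array's annotation for a milk protein, read at background in all controls and at 48 h on both sides, and changed by 4.07 at 24 h (difference -3.95 ± 0.35, adjusted p = 1.46e-06). Lalba, too, passed the filter through the 3 deafferented arrays of 24 h and no other.

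The effect was higher at 48 h for 3 probe sets (0.0196%). Mapk13 changed by 0.53 at 24 h and by 1.93 at 48 h (difference 1.40 ± 0.23, adjusted p = 0.00593), from means of 5.05 and 5.58 at 24 h to 4.87 and 6.81 at 48 h in the control and the deafferented nucleus. The adjusted p was 0.0518 without pair 1 and 0.0527 without pair 2. Csf1r changed by -0.21 and 0.77 (0.98 ± 0.17, adjusted p = 0.00751, and 0.0695 without pair 1), while its brighter probe set missed the threshold (0.102). Sema3b, a secreted guidance cue, changed by -0.98 and 0.40 (1.37 ± 0.28, adjusted p = 0.0363, and 0.366 without pair 3), and its effect at 48 h did not pass by itself (0.754). Sprr1a and Ecel1 changed by 0.33 and 0.50 at 24 h and by 1.88 and 1.82 at 48 h, and these differences missed the threshold (adjusted p of 0.0978 and 0.321). The microglial lists had medians of 0.14 (homeostatic) and 0.91 (activated) at 24 h and of 0.75 and 1.09 at 48 h. Of their 34 members at the brightest probe sets, the difference passed for 1, Lpl.

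**Figure D4:**
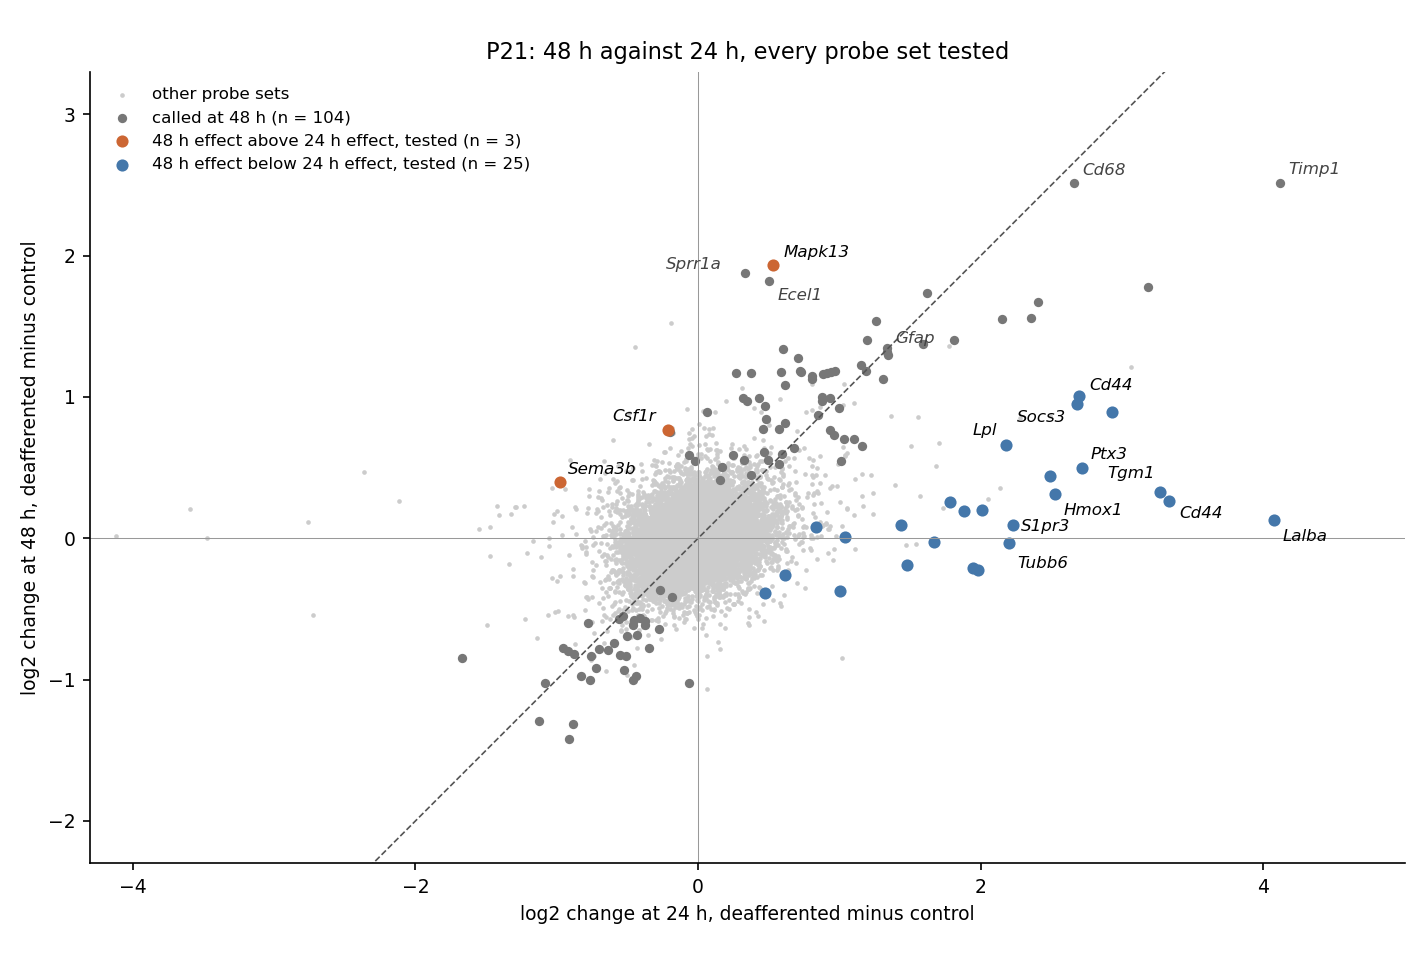
Change at 48 h against change at 24 h in the P21 nucleus, for every probe set tested. The axes are log2 changes of the deafferented against the control nucleus at 24 h (horizontal) and 48 h (vertical), and the dashed line marks equal changes. Dark grey points (104) were called at 48 h, blue points (25) had a lower and orange points (3) a higher effect at 48 h in the direct test; the blue points lie between -0.39 (Dusp6) and 1.00 (Cd44) on the vertical axis and reach 4.07 (Lalba) on the horizontal axis.

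The last comparison asked how the older nucleus differed from the younger at the same time. At P7 and 48 h, 1 probe set (0.00653%) differed between the nuclei in limma's paired fit, 0 without the pair in the model, and 1450 had an unadjusted p under 0.05. The P21 effect minus the P7 effect passed for 2 probe sets (0.0131%), both higher at P21, with and without the pair in the model. Mapk13 changed by -0.10 at P7, with means of 4.70 in the control and 4.60 in the deafferented nucleus, and by 1.93 at P21 (difference 2.03 ± 0.23, adjusted p = 0.000265). Sprr1a changed by -0.30 at P7, from 4.09 to 3.80, and by 1.88 at P21 (difference 2.17 ± 0.34, adjusted p = 0.0213). Sprr1a did not pass without pair 1 (0.186) or pair 2 (0.115) of P21, or without replicate 1 (0.0695) or 3 (0.2) of P7. Its level was at background at P7, and at 48 h of P21 in the control, and it was tested because 2 deafferented arrays of P21 and 48 h lay above log2 5. Mapk13 was at or near the limit of background at P7 and in the P21 controls.

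Other genes of the late P21 response gave smaller values at P7 that did not differ in this test. Of the 69 probe sets higher at P21 and 48 h, 56 read above 0 at P7, and of the 35 lower ones 29 read below 0. The share of all probe sets with these signs at P7 is not given here, and the median over all measured genes there was 0.03. Some genes count more than once. The probe sets were chosen by their P21 values, so smaller values at P7 say little by themselves. Timp1 read -0.02 at P7 (difference 2.53, adjusted p = 0.38), Cd68 1.18 (1.34, 0.982), Ly86 0.92 and Mpeg1 0.60. Tnnt1 and Inhbb read -0.01 and -0.05 at P7, against -1.42 and -1.31 at P21. Those differences did not pass in limma's test (adjusted p of 0.236 and 0.326). The control mean of Tnnt1 was 5.49 at P7, near the limit of background, and 7.68 at P21. A gene past the threshold at P21 and not at P7 is not thereby shown to differ between the ages, and Mapk13 and Sprr1a, the latter tested through its high group alone, are the genes for which the difference passed.

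**Figure D5:**
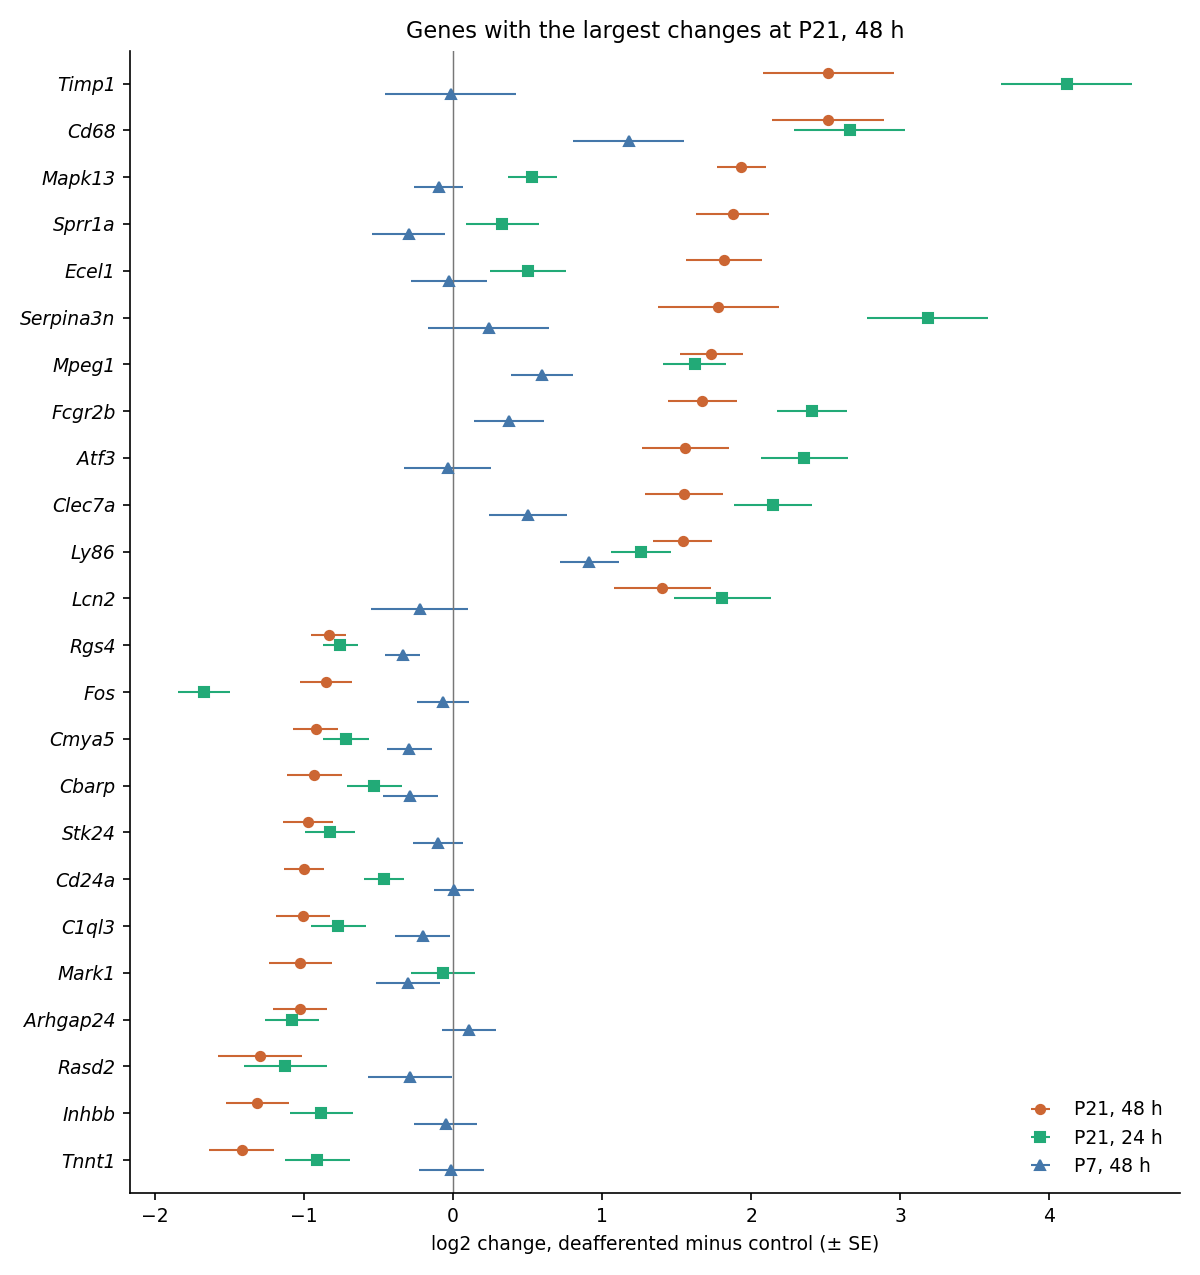
The 12 genes with the largest increases and the 12 with the largest decreases at P21, 48 h, with their changes at P21, 24 h and P7, 48 h. The horizontal axis is the log2 change of the deafferented against the control nucleus, and bars are limma's SE. That SE rests on a spread estimated over all ages and times. It is the same for a gene at each age and time, and is not the spread of the 3 pairs shown. Mapk13, Sprr1a and Ecel1 lie at 1.93, 1.88 and 1.82 at P21, 48 h and at 0.53, 0.33 and 0.50 a day earlier, and Timp1 lies at 2.52 and 4.12; no test is drawn, and these genes were chosen by their P21, 48 h values.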

How the data were processed

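RNA of cochlear nucleus pools was hybridised to Affymetrix mouse arrays, 1 array a pool. The deposited log2 values per probe set came from GCRMA, a background correction and normalisation named in the submitters' processing notes. Its version and whether all arrays were normalised together are not given in the sources used here. Probe sets above log2 5 in at least 2 of 44 arrays were kept (15323 of 22626). limma 3.58.1 (R 4.3.3) fitted all 44 arrays with a term for each pair of same-numbered arrays and a deafferented effect for each age and time (14 residual degrees of freedom, moderated variances with a trend). Differences between effects were contrasts of that fit, and p-values were adjusted by Benjamini-Hochberg within each comparison. The labels give replicate numbers but do not say that they pair the 2 sides. The pairing rests on same-numbered arrays deviating together, with the lowest r at 0.428 (P21, 48 h), 0.158 (P21, 24 h) and 0.230 (P7, 48 h). In groups not compared here that enter the fit, r was as low as -0.002 (P7, 24 h), 0.064 (P21, 6 h) and 0.070 (P7, 6 h). Array number and signal over background limit the precision.

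Genes were named from the array's platform annotation, from probe sets with 1 symbol. Named genes were the 12 largest increases and 12 largest decreases past the threshold, the 5 largest differences of each sign, up to 5 genes of each list, other list members given as values, and a fixed set of genes named whatever their values. Each was taken at its called probe set with the smallest p, and lists were counted at each gene's brightest probe set. The rule, the members and the 36 lists were chosen with earlier results of these data known. Alternatives changed the pair term, the filter, the normalisation, the variance model, the arrays fitted and the pairs kept.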

Additional observations from a re-analysis of the deposited data

Results flagged for a closer look

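Some effects at P21 and 48 h differed from another age or time in limma's test of the difference itself. Against P21 and 24 h, the log2 effect was higher by 1.40 for Mapk13, by 1.37 for Sema3b and by 0.98 for Csf1r. It was lower at 48 h for Lalba (-3.95), Cd44 (-3.07 on its dimmer probe set), Tgm1 (-2.94), Tubb6 (-2.23) and Hmox1 (-2.21). Against P7 and 48 h it was higher by 2.17 for Sprr1a and by 2.03 for Mapk13. Mapk13 is the gene for which both differences passed. Lalba, Tgm1 and Sprr1a passed the filter on low values only through the group where they were high. The dimmer probe set of Cd44 would not have passed it without the deafferented arrays of P21 and 24 h. For Sema3b pairs 1 and 3 read above 0 at 48 h and pair 2 below it (0.31, -0.15 and 1.02).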

How the results depend on the processing

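Without the pair as a block, 54 of 104 probe sets passed at P21 and 48 h, 17 of 28 in the difference from 24 h and the same number, 2, in the difference from P7. With the 6 arrays fitted alone 69 passed, and with a change of at least 1 required as well 42. For the effect at 48 h, leaving out pairs 1, 2 and 3 gave 35, 65 and 39, and leaving out single arrays without the block gave 40, 35 and 34 (controls) and 28, 51 and 40 (deafferented). Leaving out pairs gave 11 to 34 for the difference from 24 h and 1 to 3 for the difference from P7. A filter on the 6 arrays (above log2 5 in at least 3) gave 17 and 1 for the 2 differences, and no filter gave 4 for the difference from P7. Among 857 values of named genes under these alternatives no called gene changed direction and 162 values missed a threshold that the gene had passed, while Calb2, Ccl3, Ttr and Tubb6, which had not passed and lie near 0, changed sign in some. The fits with fewer arrays test on fewer samples, and beyond that the cause of a lost call was not tested. Across the alternatives, 11 named genes passed on at least 1 probe set in every one they were tested in: C1qa, C1qb, Cd24a, Ctsz, Fcgr2b, Gadd45a, Ly86, Mapk13, Mpeg1, Sprr1a and Tnnt1 (17 alternatives, and 16 for Sprr1a, which the filter on the 6 arrays removes). Other called probe sets passed in fewer, such as 7 of 17 for 1 of Cd24a and 1 of Fcgr2b, 8 for 1 of Ctsz and 13 for 1 of C1qb. The brightest probe set of Fcgr2b changed by 0.01 and did not pass. Sprr1a was tested because it was high in deafferented arrays of this comparison. Rises from below log2 5, such as those of Timp1, Sprr1a and Ecel1, start where signal cannot be told apart from background, so their folds are uncertain.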
